A study of Homo sapiens with 12 samples.

Results

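The genes of the cytosolic ribosomal proteins were followed in PANC-1, a human cell line established from a pancreatic ductal carcinoma. They were chosen by symbol: RPL or RPS followed by a number and at most 1 letter A, X or L, together with RPLP0, RPLP1, RPLP2 and RPSA. This took 83 of the 57773 genes in the table and left named pseudogenes out. The members were 49 large-subunit and 34 small-subunit genes. Of the 83, 82 passed the filter on low counts, and 78 had a mean of at least 10 CPM (counts scaled to library size with TMM factors) in vehicle. The 5 below that level included RPL3L, RPS10L and RPL10L, of which RPL10L did not pass the filter, with 0 to 3 counts per library.

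The cells were exposed for 24 h to both compounds (the combination), to 30 nM chaetocin, to 90 nM MLN8237 or to the solvent DMSO (vehicle), and each group had 3 RNA-sequencing libraries. Chaetocin is a fungal metabolite known to inhibit the histone H3K9 methyltransferase SUV39H1, and MLN8237 (alisertib) inhibits the mitotic kinase Aurora A. The combination used the same 2 doses. In one place the study text spells the code of the combination's second compound with a different digit, and it was taken as MLN8237. All groups are 1 cell line, and nothing in the labels says that the 3 libraries of a group were separate cultures, and the p-values therefore rest on a spread between libraries that may be technical.

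Each cytosolic ribosome holds 1 copy of nearly every ribosomal protein, so the members' transcripts are among the most abundant of a growing cell and are made in balance. Their messenger RNAs typically start with a C followed by a run of pyrimidines (the 5' terminal oligopyrimidine or TOP motif), through which the kinase mTOR controls their translation.

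The start of transcription is shown for 7 members: the 4 that fell with the combination (RPL4, RPL10, RPL12 and RPL15), the stalk gene RPLP0, the most abundant member RPS16 and the tunnel gene RPL39. Sequences are from RefSeq (GRCh38.p14), 60 bases before the annotated start and 20 from it on. Capitals mark the unbroken run of C or T that holds the annotated start base, which is position 61.
RPL4, chr15:66504836-66504915, minus strand: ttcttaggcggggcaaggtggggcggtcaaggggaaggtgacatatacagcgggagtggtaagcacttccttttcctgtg
RPL10, chrX:154398005-154398084, plus strand: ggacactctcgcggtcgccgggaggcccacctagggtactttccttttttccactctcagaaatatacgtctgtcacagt
RPL12, chr9:127451387-127451466, minus strand: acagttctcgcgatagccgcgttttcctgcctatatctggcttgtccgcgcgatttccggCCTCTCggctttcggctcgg
RPL15, chr3:23916485-23916564, plus strand: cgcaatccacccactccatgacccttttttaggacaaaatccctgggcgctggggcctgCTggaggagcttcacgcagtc
RPLP0, chr12:120201092-120201171, minus strand: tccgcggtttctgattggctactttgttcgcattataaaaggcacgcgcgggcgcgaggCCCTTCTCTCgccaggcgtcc
RPS16, chr19:39435930-39436009, minus strand: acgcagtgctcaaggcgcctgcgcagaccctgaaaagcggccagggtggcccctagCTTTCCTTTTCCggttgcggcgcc
RPL39, chrX:119791611-119791690, minus strand: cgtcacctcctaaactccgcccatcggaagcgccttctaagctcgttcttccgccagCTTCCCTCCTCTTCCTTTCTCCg

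Of the 83 members, 64 matched a RefSeq promoter. In 44 of them (68.8%) the start base lay in a run of at least 5 C or T, against 9.6% of the 35116 promoters of the same length in the table. RPL4 and RPL10 had no such run at their annotated start, and RPL15 had a run of 2. The letters CTTCCG, read on either strand, were searched in 300 bases per promoter, 250 of them before the annotated start. This is wider than the sequences shown. They were present in 40 of the 64 promoters (62.5%), against 19.5% of all promoters. TATAAA was present in the 60 bases before the start in 3 (4.69%), against 2.78%. A match describes letters and not a bound site.

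The libraries held 49439795 to 63747510 summed gene counts each, and 22831 genes were tested. The keratin genes KRT8 and KRT18 reached at least 992 and 681 CPM in every library, while PTPRC, CD3E, PRSS1 and INS, which mark immune, acinar and islet cells, stayed below 1 CPM throughout. The endothelial gene VWF was at 0 to 4.08 CPM, with a mean of 0 in vehicle, and the epithelial genes KRT7 and CDH1 were low, at 3.49 to 7.18 and 1.35 to 12.1 CPM. CD68, a lysosomal protein used as a macrophage marker, was at 153 to 229 CPM. One library stood apart: MLN8237 replicate 3 held 6.14% of its counts in the members, against 3.13% to 4.21% in the other 11 libraries. Counts and medians of the members that rest on this library are given with and without it.

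In vehicle, the 78 members above 10 CPM spanned 5.57 to 2476 RPKM in the authors' length-scaled values, with a median of 118 and a middle range of 72.8 to 183 RPKM. RPS16, a small-subunit protein whose tail reaches towards the transfer RNA in the decoding site, stood at the top with 2476 RPKM, 20.9 times the member median, and had the highest summed count of all genes in the vehicle libraries (1071937 over 3 libraries). It held 16.4% to 17.9% of the members' counts in every library. RPS12 followed at 865 and the stalk gene RPLP2 at 401 RPKM. The lowest of the 78 were RPS27L at 5.57, RPL9 at 31.2 and RPL23 at 31.4 RPKM. The order depends on the lengths that the authors list, such as 767 bases for RPS12, 1955 for RPLP2 and 5979 for RPL23. An order by CPM can differ from it. Of the 83 members, 58 overlap another gene in the table, many of them small nucleolar RNA genes in introns, and 74 have named pseudogenes in it (850 in all). Reads shared with those genes could be counted to either, so levels of single members are uncertain to that extent.

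The combination against vehicle asked what both compounds together did. The members sat lower together. They held 3.13%, 3.58% and 3.80% of the counts in the combination libraries, against 4.16%, 3.72% and 3.62% in the vehicle libraries. On TMM-scaled CPM, the members summed to 32884 ± 3773 in the combination and 39558 ± 3126 in vehicle (SD, n = 3 each), a difference of -6674 CPM that is at the smallest p an exact two-sided permutation test of 3 against 3 can give (0.1). The share itself overlapped between the groups (difference -0.33 percentage points, exact permutation p = 0.4, and -0.15 without combination replicate 1). These values are relative to the other RNA of each library, so a loss of these transcripts per cell cannot be read from them.

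**Figure D1:**
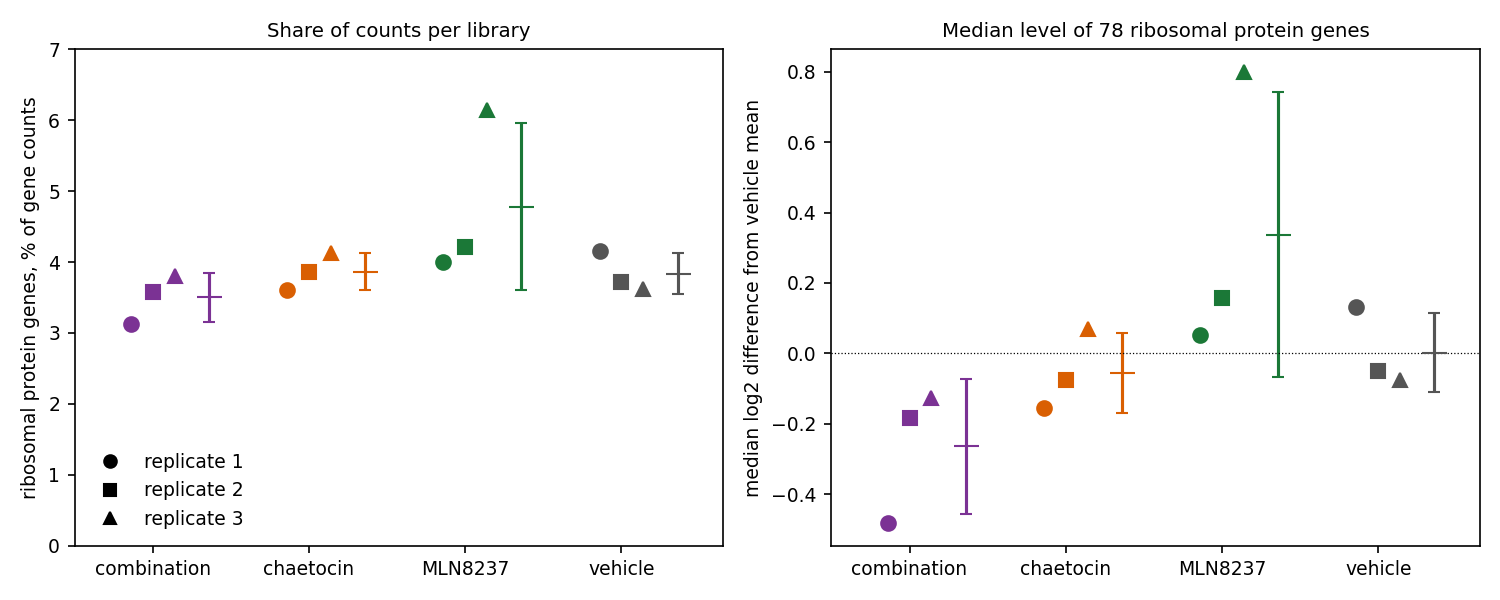
Left, percent of each library's gene counts held by the 83 ribosomal protein genes; right, median log2 difference of 78 of them from the vehicle mean; points are libraries by group and replicate, and bars show the mean and SD of 3. MLN8237 replicate 3, at 6.14% and 0.80, lies far above the other libraries, and combination replicate 1, at 3.13% and -0.48, is the lowest.

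Gene by gene, 77 of the 82 tested members (93.9%) had a negative log2 fold change with the combination, against 48.7% of all genes tested. All 77 were among the 78 members above 10 CPM, where the exception was RPL39L at 0.07. The median over the 82 tested members was -0.26, beside 0.02 over all genes tested. All 3 combination libraries lay below all 3 vehicle libraries for 44 of 82 members (53.7%), against 27.4% of all genes tested. At an adjusted p under 0.05, 4 of 82 fell (4.88%, against 18.3% of all genes tested) and 1 rose (1.22%, against 20.1%). The median standard error of the members was 0.17.

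**Figure D2:**
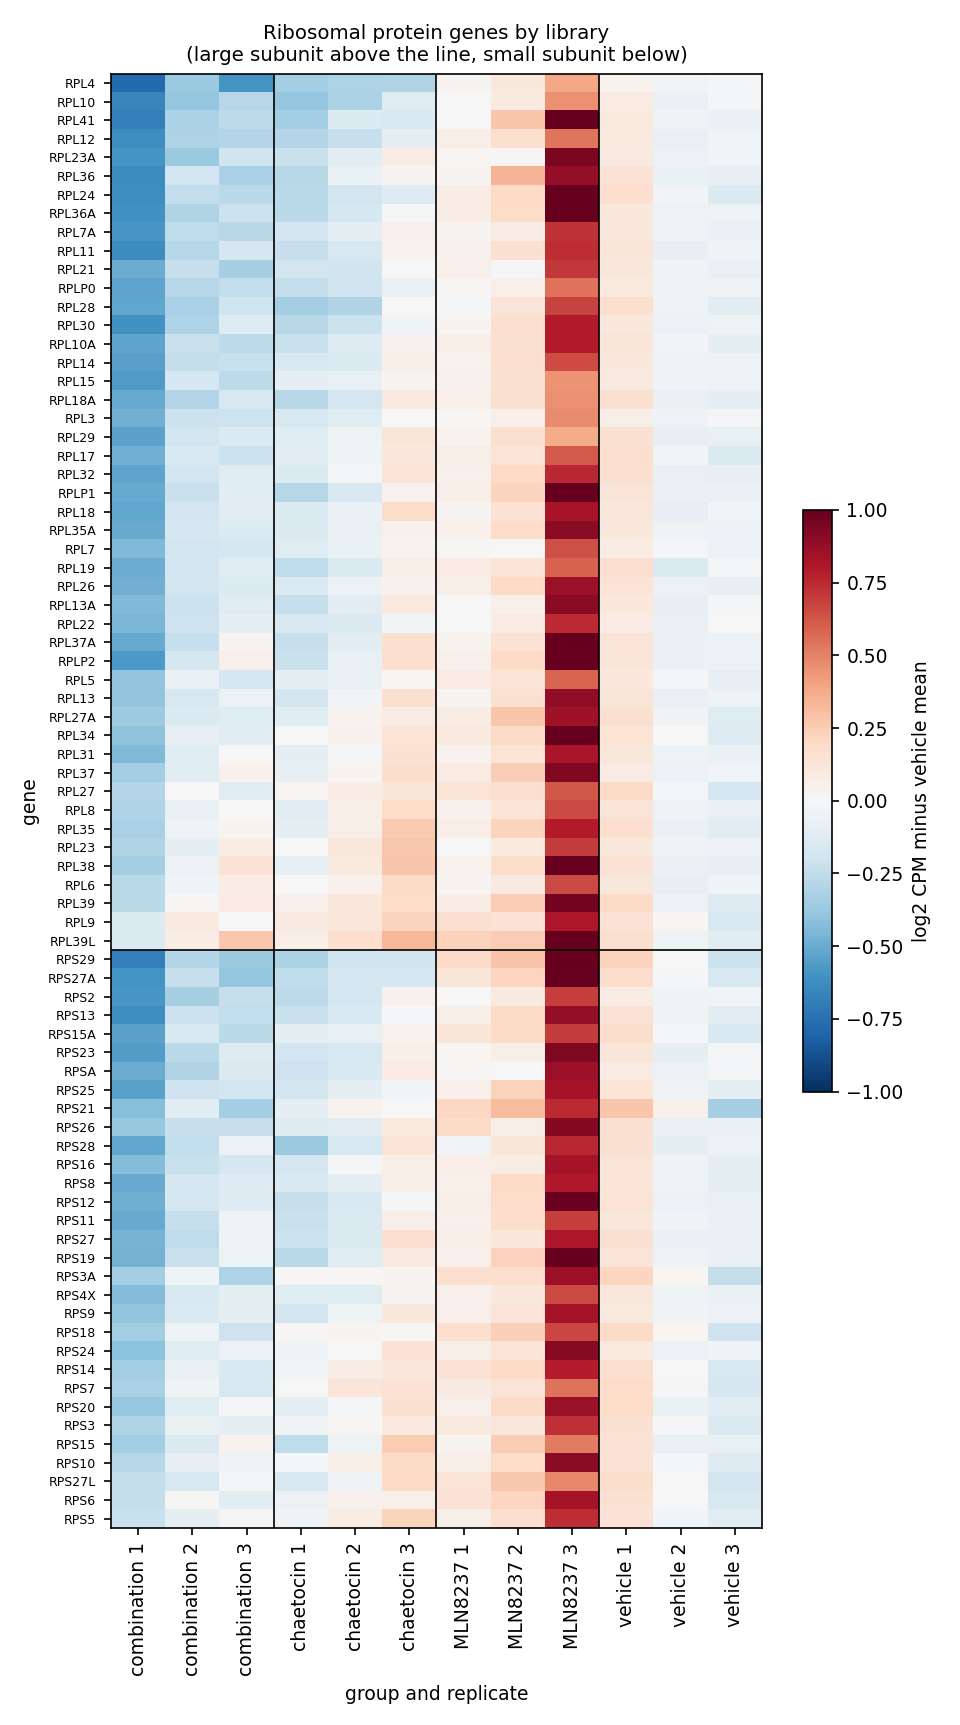
Log2 CPM minus the vehicle mean for 78 ribosomal protein genes (rows, large subunit above the line and small subunit below, each ordered by the mean of the combination libraries) in 12 libraries (columns). The columns differ more than the rows: combination replicate 1 is blue and MLN8237 replicate 3 is red in all 78 rows.

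RPL4, whose protein has a loop that lines the exit tunnel for the growing peptide, fell the most of the called members. It had 688, 910 and 780 CPM in the combination libraries, against 1210, 1155 and 1171 CPM in the vehicle libraries, so the groups were far from overlapping. The log2 fold change was -0.57 ± 0.12 (SE, edgeR adjusted p = 0.00179). RPL4 (ENSG00000174444, hg19 chromosome 15, 66790355 to 66816870) overlaps ZWILCH and the small nucleolar RNA genes in its introns.

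RPL10, whose protein joins the large subunit last and sits near the site of peptide bond formation, had 470, 568 and 611 CPM in the combination libraries, against 788, 711 and 732 CPM in the vehicle libraries. Each combination library was below each vehicle library, and the gene fell by 0.44 ± 0.13 on the log2 scale (SE, edgeR adjusted p = 0.0191). RPL12, at the base of the ribosomal stalk, had 231, 286 and 290 CPM with the combination and 380, 338 and 350 CPM with vehicle. It fell by 0.40 ± 0.13 (adjusted p = 0.0248). RPL15, a core protein of the large subunit, had 185, 244 and 229 CPM with the combination and 293, 268 and 265 CPM with vehicle, and fell by 0.33 ± 0.12 (adjusted p = 0.0490). In all 4 genes replicate 1 was the lowest of the combination libraries.

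Without MLN8237 replicate 3, a library outside this comparison that enters the shared estimate of the spread, the median standard error of the members was 0.10 in place of 0.17 while the median log2 fold change stayed near, at -0.27. Then 40 of 82 members fell (48.8%, against 23.2% of all genes tested) and 2 rose, RPL3L and RPS10L (2.44%, against 23.5%). All 5 members called with 12 libraries were among these 42. RPS10L has few counts and may have passed the filter through the combination, so its call is no support for a rise. The 40 were 28 large-subunit and 12 small-subunit genes. The size of the decrease rested partly on single libraries within the comparison: without combination replicate 1 the median was -0.15, with 1 member lower (1.22%, against 12.8%) and 1 higher, and without vehicle replicate 1 it was -0.20, with 1 lower (1.22%, against 14.5%) and 1 higher. With MLN8237 replicate 3 left out together with combination replicate 1 or with vehicle replicate 1, 17 members fell each time (20.7%, against 19.4% of all genes tested), a share near the background. RPL4, RPL10, RPL12 and RPL15 passed in both of these fits.

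The stalk, which recruits elongation factors to the ribosome, is built on RPLP0 and carries pairs of RPLP1 and RPLP2. RPLP0 had 937, 1108 and 1135 CPM in the combination libraries, against 1447, 1301 and 1303 CPM in the vehicle libraries (log2 fold change -0.35 ± 0.13, edgeR adjusted p = 0.0567, and 0.00334 without MLN8237 replicate 3). RPLP1 averaged 642 ± 87.9 CPM with the combination and 775 ± 62.8 CPM with vehicle, and RPLP2 714 ± 151 and 827 ± 61.2 CPM. Their log2 fold changes of -0.27 and -0.21 did not pass the test.

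RPL5 and RPL11 bind the 5S ribosomal RNA and, when free, the ubiquitin ligase MDM2. RPL5 had a log2 fold change of -0.21 ± 0.13 (adjusted p = 0.235) and RPL11 of -0.35 ± 0.17 (adjusted p = 0.122). RPL11 passed without MLN8237 replicate 3 (adjusted p = 0.0151) and RPL5 did not (0.0502). RPL3, which lies next to the peptidyl transferase centre, had 421, 505 and 508 CPM in the combination libraries, against 613, 567 and 584 CPM in the vehicle libraries. The groups did not overlap, with a log2 fold change of -0.30 ± 0.12 (adjusted p = 0.0732, and 0.00678 without MLN8237 replicate 3). RPL13A (-0.26), RPL22 (-0.25) and RPL41 (-0.41), the last of which encodes the shortest ribosomal protein, passed without that library, with adjusted p of 0.0378, 0.0267 and 0.00575.

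The 4 members that fell with all 12 libraries were large-subunit genes, but the medians of the subunits were alike: -0.25 over 31 small-subunit genes and -0.26 over 47 large-subunit genes above 10 CPM. RPS6, whose protein is the substrate of the S6 kinases, had 277, 330 and 303 CPM in the combination libraries, against 364, 328 and 293 CPM in the vehicle libraries. The groups overlapped (log2 fold change -0.11 ± 0.16, adjusted p = 0.607). RPS27A, made as a fusion to ubiquitin, averaged 487 ± 61.9 CPM with the combination and 644 ± 76.6 CPM with vehicle (log2 fold change -0.40, adjusted p = 0.122, and 0.00382 without MLN8237 replicate 3). RPS29, a small zinc-binding protein, had -0.45 (adjusted p = 0.0916, and 0.00413 without it). RPSA (-0.31), RPS3 (-0.16), RPS19 (-0.24), mutated in Diamond-Blackfan anaemia, and the X-linked RPS4X (-0.22) did not pass with all libraries, and RPSA passed without MLN8237 replicate 3 (adjusted p = 0.0151). RPS16 had 5010, 5810 and 6033 CPM with the combination, against 7418, 6623 and 6350 CPM with vehicle, 3 lower values against 3 higher ones (log2 fold change -0.27 ± 0.18, adjusted p = 0.247, and 0.0201 without that library).

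**Figure D3:**
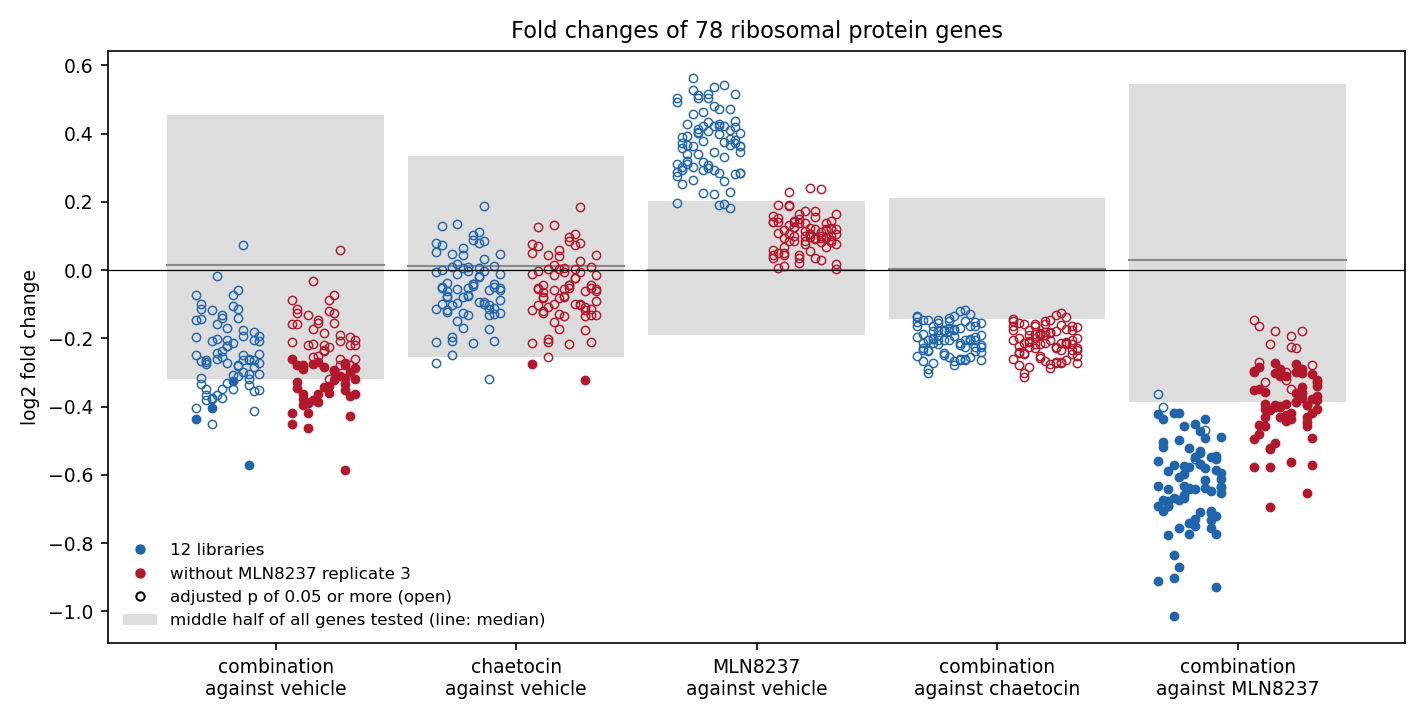
Log2 fold changes of 78 ribosomal protein genes (points, filled at an adjusted p under 0.05) in 5 comparisons, with all 12 libraries (left cloud) and without MLN8237 replicate 3 (right cloud), over the middle range of all genes tested with all libraries (grey, with its median). The cloud of MLN8237 against vehicle has a median of 0.37 with that library and 0.11 without it, and leaving it out fills points in the combination against vehicle at nearly the same fold changes.

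The member that rose was RPL3L, a paralog of RPL3 that is expressed mainly in skeletal muscle and heart. It had 296, 98 and 356 counts in the combination libraries and 93, 192 and 176 in the chaetocin libraries. MLN8237 libraries held 12, 18 and 7 counts and vehicle libraries 9, 5 and 17. On the CPM scale this was 4.61, 1.71 and 6.06 with the combination, 1.61, 2.93 and 3.05 with chaetocin, 0.22, 0.37 and 0.15 with MLN8237 and 0.19, 0.09 and 0.30 with vehicle. The 6 libraries with chaetocin all lay above the 6 without it. The log2 fold change was 4.39 ± 0.53 for the combination (edgeR adjusted p = 5.5e-05) and 3.68 ± 0.53 for chaetocin (adjusted p = 0.000399), both against vehicle, and the 2 comparisons share the vehicle libraries. Between the combination and chaetocin the groups overlapped (log2 fold change 0.70 ± 0.41, adjusted p = 0.531). RPL3L (ENSG00000140986, hg19 chromosome 16, 1993975 to 2007607) overlaps no other gene in the table. Its level remained low per length: 1.54 RPKM with the combination, beside 102 RPKM of RPL3 in the same libraries.

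**Figure D4:**
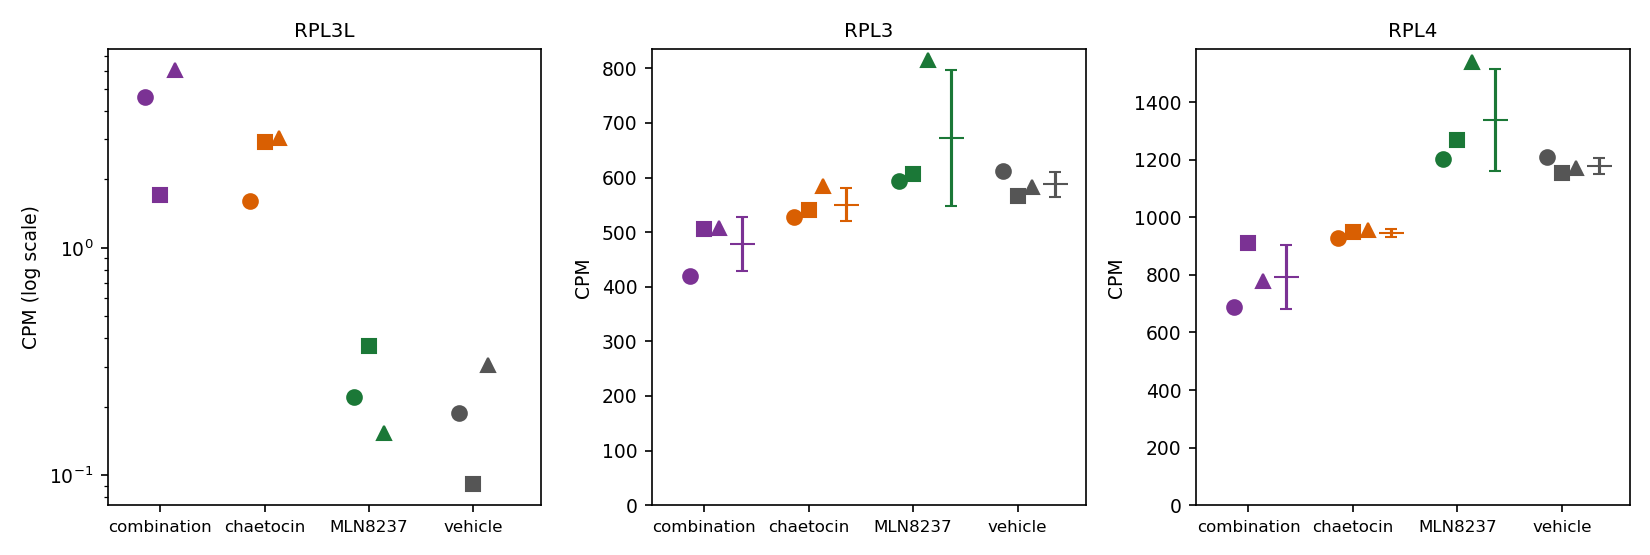
CPM of RPL3L (logarithmic axis), RPL3 and RPL4 (linear axes from 0) by group; circles, squares and triangles are replicates 1, 2 and 3, and bars give the mean and SD of 3 for RPL3 and RPL4. RPL3L lies at 1.61 CPM or above in all 6 libraries with chaetocin and at 0.37 CPM or below in the other 6, while RPL3 and RPL4 are lower in the combination than in vehicle.

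Low or moderate levels were also seen for other members whose symbol ends in L. RPL39L, a paralog of the exit tunnel protein RPL39 known from testis, averaged 40.2 ± 5.79 CPM with the combination, 43.6 ± 4.19 with chaetocin, 55.7 ± 18.3 with MLN8237 and 38.2 ± 3.85 with vehicle. RPL39 averaged 296 ± 37.1, 333 ± 15.3, 428 ± 147 and 309 ± 37.5 CPM in the same order of groups. Neither passed the test between the combination and vehicle (log2 fold changes 0.07 ± 0.19 and -0.06 ± 0.19). RPS27L, a paralog of RPS27, averaged 21.5 ± 1.71 CPM with the combination and 23.7 ± 2.90 CPM with vehicle, and RPS27 186 ± 27.5 and 221 ± 20.2 CPM, and neither passed the test. RPS10L, which a newer annotation (GENCODE v29) lists by the same identifier as a processed pseudogene of RPS10, had 19, 12 and 10 counts in the combination libraries and 4, 5 and 3 in the vehicle libraries. Its log2 fold change of 1.55 ± 0.63 (adjusted p = 0.0697, and 0.0452 without MLN8237 replicate 3) rests on those counts. With vehicle counts this low, the gene may have passed the low-count filter through the combination, where it is high. A call reached that way cannot support a rise.

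Chaetocin against vehicle asked what that compound did by itself. No shift of the family was detected. Their share of counts was 3.60%, 3.86% and 4.13% with chaetocin, against 4.16%, 3.72% and 3.62% with vehicle (difference 0.03 percentage points, exact permutation p = 1), and TMM-scaled library sizes turned the sign (-0.17). The median log2 fold change was -0.05, beside 0.01 for all genes, and it was 0.01 without vehicle replicate 1. Of the 82 tested members, 55 had a negative log2 fold change (67.1%, against 48.8% of all genes tested). RPL3L rose (1 of 82 or 1.22%, against 12.6% of all genes tested). No member fell by edgeR (0%, against 11.9%), with 1 at an unadjusted p under 0.05 (1.22%, against 17.5%), and DESeq2 and limma-voom each called 1 lower (1.22%, against 13.3% and 12.2% of all genes tested).

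RPL4 had the smallest p among those lower with chaetocin. It had 929, 950 and 956 CPM in the chaetocin libraries, against 1210, 1155 and 1171 CPM in the vehicle libraries, with no overlap (log2 fold change -0.32 ± 0.12, adjusted p = 0.0611). RPL10 had 569, 597 and 682 CPM with chaetocin, against 788, 711 and 732 CPM with vehicle (-0.27 ± 0.13, adjusted p = 0.158). RPL12 had -0.21 ± 0.13 (adjusted p = 0.278). Without MLN8237 replicate 3, RPL4 (adjusted p = 0.0134) and RPL10 (0.0470) passed (2.44%, against 15.9%). The members whose chaetocin libraries lay wholly below the vehicle libraries were 6 of 82 (7.32%, against 23.9% of all genes tested): RPL4, RPL10, RPL12, RPL41, RPLP0 and RPS27A.

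MLN8237 against vehicle asked the same of the Aurora A inhibitor. The members' share was 4.0%, 4.21% and 6.14% with MLN8237, against 4.16%, 3.72% and 3.62% with vehicle (difference 0.95 percentage points, exact permutation p = 0.2, and 0.27 without MLN8237 replicate 3). Of the 82 tested members, 81 had a positive log2 fold change (98.8%, against 49.7% of all genes tested), among them all 78 above 10 CPM. The median was 0.37, beside a median near 0 over all genes. No member passed the adjusted threshold by edgeR, DESeq2 or limma-voom (0 of 82 higher, against 0.00438% of all genes tested), while 42 of 82 were higher at an unadjusted p under 0.05 (51.2%, against 5.37%). All 3 MLN8237 libraries lay above all 3 vehicle libraries for RPL9, RPL37 and RPL39L (3 of 82 or 3.66%, against 6.96%). The smallest p among the members were those of RPL39L (0.54 ± 0.19), RPS29 (0.56 ± 0.20) and RPS6 (0.42 ± 0.16), each with an adjusted p of 0.516. Without MLN8237 replicate 3 their log2 fold changes were 0.24, 0.23 and 0.17, with an adjusted p of 1 each. RPS29 had 461 CPM in MLN8237 replicate 3, against a mean of 259 CPM in MLN8237 replicates 1 and 2 and 221 ± 33.6 CPM in vehicle. When MLN8237 replicate 3 was left out, 0 members were higher at an unadjusted p under 0.05 (0%, against 1.09%). The median was then 0.11, with 80 of 82 members positive (97.6%, against 49% of all genes tested).

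MLN8237 replicate 3 exceeded the mean of MLN8237 replicates 1 and 2 in all 78 members, by a median of 0.68 on the log2 scale. The excess ran between 0.27 for RPL29, a large-subunit gene that had 286 CPM in that library against 226 and 247 CPM in the other two, and 1.03 for RPL37A, which had 1072 CPM against 505 and 545. Short genes outside the family also stood high in this library. Gene length throughout is the value that the authors label coding length, and not the genomic span. Among other genes with a mean of at least 10 CPM, split into 4 bins of gene length, the shortest bin had a median of 0.42 above the vehicle mean there, and the longest -0.32. Of the 78 members, 41 lie in the shortest bin, 22 in the second, 13 in the third and 2 in the longest. Within the members the excess was nearly unrelated to length (Spearman's rho across genes -0.07, which are not independent replicates). The members' median in this library was 0.80 above the vehicle mean, beyond that of 504 other genes under 1 kb (0.45). The part of gene length in the members' result was not tested beyond an offset for the length trend, with which the median of MLN8237 against vehicle was 0.33.

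**Figure D5:**
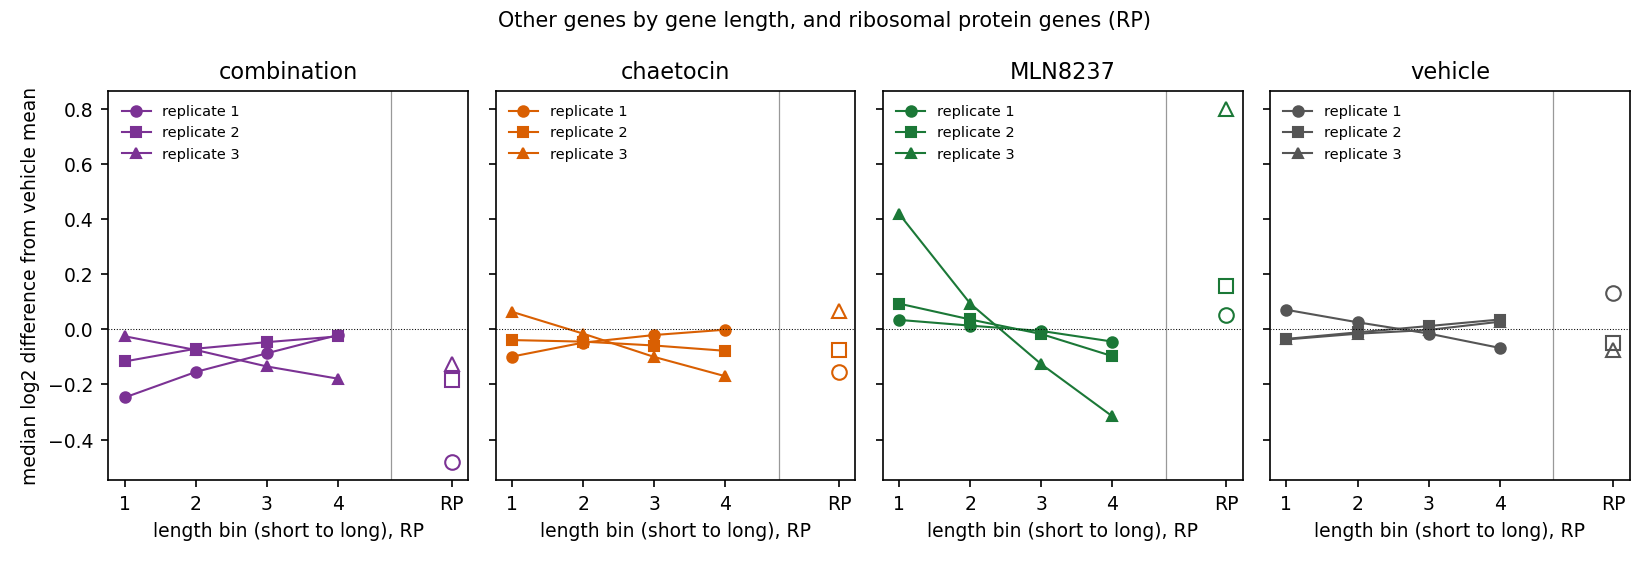
Median log2 difference from the vehicle mean of genes outside the family in 4 bins of gene length (lines, short to long) and of 78 ribosomal protein genes (open symbols, right of the grey line), for each library by group. MLN8237 replicate 3 falls the most with length, with 0.42 in the shortest and -0.32 in the longest bin, and combination replicate 1 rises, with -0.25 and -0.02. Chaetocin replicate 3 (0.06 and -0.17) and combination replicate 3 (-0.02 and -0.18) also fall, and vehicle replicate 3 does not (-0.04 and 0.03).

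The same measure was low in combination replicate 1, where other genes in the shortest bin had a median of -0.25 and those in the longest -0.02, beside -0.48 for the members. In combination replicates 2 and 3 the members' medians were -0.18 and -0.13, beside -0.12 and -0.02 for the shortest bin of other genes. From the shortest to the longest bin, combination replicate 3 went from -0.02 to -0.18 and chaetocin replicate 3 from 0.06 to -0.17. Vehicle replicate 3 went from -0.04 to 0.03, while MLN8237 replicate 2 (0.09 to -0.10) and vehicle replicate 1 (0.07 to -0.07) also fell. In each treated group replicate 3 had the highest members' median. A link to the replicate number was not tested beyond the replicate block. With offsets for the length trend the median of the combination against vehicle was -0.26 and 10 members fell (12.2%, against 19.4% of all genes tested).

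The combination against chaetocin asked what MLN8237 added. Of the 82 tested members, 80 had a negative log2 fold change (97.6%, against 49.3% of all genes tested). Among them were all 78 above 10 CPM, between -0.30 (RPL23A) and -0.12 (RPL39L). The median over the 82 was -0.20, beside a median near 0 over all genes tested. The median was -0.10 without combination replicate 1. All 3 combination libraries lay below all 3 chaetocin libraries for 28 of 82 members (34.1%, against 9.15%). None passed by edgeR (0 of 82 lower, against 0% of all genes tested), by DESeq2 (against 0.438%) or by limma-voom (against 0%). By edgeR 2 were lower at an unadjusted p under 0.05 (2.44%, against 4.8%). These were RPL15 (-0.28 ± 0.12, adjusted p = 0.403) and RPL4 (-0.25 ± 0.12, adjusted p = 0.419). In the fit without MLN8237 replicate 3, 38 were lower at an unadjusted p under 0.05 (46.3%, against 9.25%) and 0 at the adjusted threshold (against 0.00423%). The share of counts was 3.50% ± 0.34 with the combination and 3.86% ± 0.26 with chaetocin (SD, n = 3 each, exact permutation p = 0.2).

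The combination against MLN8237 asked what chaetocin added. Here 74 of 82 members fell (90.2%, against 22.7% of all genes tested) and RPL3L rose (1.22%, against 23.3%), with a median of -0.61, beside 0.03 over all genes. Without MLN8237 replicate 3, 63 fell (76.8%, against 21.8%) and 2 rose (2.44%, against 21.6%), with a median of -0.36. Without combination replicate 1, 39 fell (47.6%, against 16%). RPS29 led by size, with 162 ± 22.1 CPM in the combination and 326 ± 117 CPM with MLN8237 (log2 fold change -1.01, adjusted p = 0.0014, and -0.69, adjusted p = 0.000641, without MLN8237 replicate 3). RPL41 (-0.93), RPS27A (-0.91), RPL24 (-0.90), RPL36A (-0.87) and RPL36 (-0.83), all structural proteins of the ribosome, followed, and each passed in both fits (log2 fold changes of -0.51 to -0.58 without that library). RPL4 had the smallest p of those that fell (-0.76 ± 0.12, adjusted p = 0.000256, and -0.65, adjusted p = 0.000177, without MLN8237 replicate 3). RPL6, RPL23, RPL38 and RPL39L, with log2 fold changes of -0.36 to -0.55, were the members above 10 CPM that did not pass, and these 4 had -0.15 to -0.19 without MLN8237 replicate 3.

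The effect of MLN8237 in the presence of chaetocin (combination minus chaetocin) was set against its effect in the absence of it (MLN8237 minus vehicle) as 1 value per library. The median level of the 78 members differed by -0.21 with chaetocin and by 0.33 without it on the log2 scale, and the difference between these effects was -0.54 (exact permutation within each contrast, two-sided, 400 arrangements, p = 0.04, adjusted over 3 measures 0.04). The difference was -0.31 without MLN8237 replicate 3 (200 arrangements, exact permutation p = 0.07). With labels permuted within each contrast, these p refer to no MLN8237 effect in either, and not to equal effects. Gene by gene, none of 82 members passed the interaction test by edgeR (0 lower, against 0% of all genes tested), by DESeq2 (against 0.0175%) or by limma-voom (against 0%). By edgeR 59 were lower at an unadjusted p under 0.05 (72%, against 7.75%), or 41 (50%, against 5.21%) without MLN8237 replicate 3. RPS21, RPS18 and RPS15A, small-subunit genes, had the smallest p, with interaction terms of -0.69, -0.58 and -0.62 (adjusted p = 0.362 each), and of -0.52, -0.42 and -0.43 without MLN8237 replicate 3 (adjusted p = 0.501 each).

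The members moved together across libraries. Each member's log2 CPM followed the mean of the other 77 with a Pearson r between 0.843 (RPL4) and 0.999, with a median of 0.979 over 12 libraries, and between 0.655 (RPL39L) and 0.997, with a median of 0.953, without MLN8237 replicate 3. This is a description over libraries that share depth, composition and that outlying library. Outside the family, the genes whose log2 CPM was most like the members' mean over the 12 libraries were RP11-849F2.7, which overlaps RPL26, with r = 0.999, then NDUFAB1 at 0.997 and SLIRP, MRPS24 and URGCP-MRPS24 at 0.995 each. The 44 members with a pyrimidine run of at least 5 at the annotated start had a median log2 fold change of -0.26 with the combination. The 19 others that matched a promoter and were above 10 CPM had -0.27. This split depends on where the start is annotated.

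Lists of genes with related roles were read in the combination against vehicle beside the background of 20.1% higher and 18.3% lower. Of 22 translation factors and other TOP-type genes, 7 fell (31.8%) and 0 rose, with a median of -0.24. Vimentin (VIM), an intermediate filament gene with a TOP start, had 2844 CPM with the combination and 4768 CPM with vehicle (log2 fold change -0.75, adjusted p = 0.000421). The elongation factor genes EEF1A1 (-0.45, adjusted p = 0.00383) and EEF1G (-0.53, adjusted p = 0.00362) also fell. TPT1, another TOP gene, had -0.04. Of 78 table entries of 76 mitochondrial ribosomal protein genes (MRPS17 and MRPL30 have 2 entries each), 27 fell (34.6%) and 1 rose, with a median of -0.24, led by MRPL1 (-1.11) and MRPS34 (-1.04). Of 40 entries of 38 nuclear subunits of the respiratory chain (NDUFA7 and UQCR11 have 2 each), 12 fell (30%) and 0 rose, with a median of -0.41. The subunit gene of ATP synthase ATP5G1 had 103 CPM with the combination and 189 CPM with vehicle (-0.87, adjusted p = 0.000654).

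The lists of ribosome biogenesis and RNA polymerase I had medians near 0. Of 40 ribosome biogenesis factors, 8 fell (20%, against 18.3% of all genes tested) and 1 rose (2.5%, against 20.1%), with a median of -0.04. The helicase gene DDX47 (-0.89) and the nucleolar NOLC1 (-0.51) fell and PNO1 (0.36) rose. Of 15 genes of the RNA polymerase I machinery, 1 fell (6.67%) and 2 rose (13.3%), with a median of 0.01. There UBTF, which activates ribosomal RNA transcription, had 94.1 CPM with the combination and 152 CPM with vehicle (-0.69, adjusted p = 0.000185). Of 19 genes around mTOR and the S6 kinases, 7 fell (36.8%), among them RPS6KB2 (-0.52) and MTOR (-0.44), and 1 rose (5.26%). Of 13 host genes of small nucleolar RNAs, 2 fell (15.4%) and 1 rose (7.69%). Of 7 paralogs outside the symbol rule, RPL7L1 fell (-0.40) and RSL24D1 rose (0.47), 14.3% each way. Of the 149 ribosomal protein pseudogenes that passed the filter, 24 rose (16.1%) and 9 fell (6.04%), with a median of -0.07. In MLN8237 replicate 3, the lists' median excess over MLN8237 replicates 1 and 2 was 0.74 for the respiratory chain, 0.51 for mitochondrial ribosomal proteins, 0.56 for snoRNA hosts, 0.34 for the TOP-type genes, 0.54 for the pseudogenes, 0.42 for the paralogs, 0.20 for biogenesis factors, 0.02 for polymerase I genes and -0.17 for the mTOR and S6 kinase genes. Its part in the lists' results was not tested beyond the fit without it, in which 23.2% of all genes tested fell. In that fit 14 TOP-type genes fell (63.6%), 44 mitochondrial ribosomal (56.4%), 37 respiratory chain (92.5%), 10 biogenesis (25%), 3 polymerase I (20%), 7 mTOR and S6 kinase genes (36.8%), 6 snoRNA hosts (46.2%), 2 paralogs (28.6%) and 18 pseudogenes (11.3%). Against 23.5% of all genes tested, 0 TOP-type, 2 mitochondrial ribosomal (2.56%), 0 respiratory chain and 4 biogenesis genes (10%) rose in it. So did 2 polymerase I (13.3%), 1 mTOR and S6 kinase (5.26%), 2 snoRNA host (15.4%), 1 paralog (14.3%) and 30 pseudogenes (18.9%).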

How the data were processed

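RNA sequencing of 12 PANC-1 libraries was used, 3 per group. The submitters' processing notes list hg19, HTSeq, TopHat and CASAVA 1.9 with no role. A strand setting is not stated. The authors deposited raw counts and RPKM per gene and library, per the file headers. RPKM served to compare levels between genes and to describe them. Counts were tested with edgeR 4.0.16 (R 4.3.3): expression filter by group, TMM scaling, 4 group means, robust quasi-likelihood F test, and Benjamini-Hochberg adjustment over 22831 genes, called at an adjusted p under 0.05. Variation between replicates was 0.155 as edgeR's common biological coefficient. Deviations per library are log2 CPM with a prior count of 2. Single values per library were compared by exact permutation, where 3 against 3 cannot go below 0.1. Replicate pairs differed by more than sampling noise (chi-square per gene 5.354 to 113.8), so none was merged. Gene types came from GENCODE v29 by identifier and 82 of 83 members matched. Starts came from RefSeq.

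Members were named by role, with copies ending in L, the extremes of level, and the members with the largest called changes or the smallest p per comparison; of lists outside the family, the genes with the smallest p were eligible. The members and lists were chosen with earlier results of these data known. Alternatives were RLE scaling, TMM factors without the family, no filter, a stricter filter (at least 1 CPM in 6 libraries), offsets for gene length, DESeq2 1.42.0, limma-voom (limma 3.58.1), a fit of the compared groups, the replicate number as a block, and libraries left out. For the share of counts they were TMM-scaled sizes, nuclear genes, and adding pseudogenes. Leaving RPS16 out of the share, and leaving out MLN8237 replicate 3 with a second library, were added after seeing the data. Some genes that met these rules are not reported here.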

Additional observations from a re-analysis of the deposited data

Results flagged for a closer look

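The estimated effect of MLN8237 on the ribosomal protein genes differed in sign between cells with and without chaetocin, on 3 related measures of the same libraries. Labels were permuted within each contrast, so the test assumed no MLN8237 effect in either and cannot test for equal effects. With chaetocin minus without it, the effect on the median log2 level of 78 members differed by -0.5439 (-0.2096 against 0.3342), by exact permutation of 400 arrangements (two-sided p = 0.04). For the share of counts the difference was -1.308 percentage points (-0.3606 against 0.9472, exact permutation p = 0.04). For the summed CPM it was -16380 (-4974 against 11410, exact permutation p = 0.035). All 3 combination libraries lay below the chaetocin mean and all 3 MLN8237 libraries above the vehicle mean on each measure. The groups still overlapped on each measure. Combination replicate 3 lay above chaetocin replicate 1 (median log2 level -0.127 against -0.1558). MLN8237 replicate 1 lay below vehicle replicate 1 (0.05166 against 0.1314). Either contrast alone had an exact permutation p of 0.2 on each measure. Without MLN8237 replicate 3 the differences between the effects were -0.3121, -0.6289 and -7714, with exact permutation p of 0.07, 0.075 and 0.06 over 200 arrangements.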

How the results depend on the processing

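The 106 recomputations of the median log2 fold change moved it by less than 1 SD between replicates, an SD that in the MLN8237 group rests on its replicate 3. Single called members kept direction and call in 1198 recomputations and lost the call in 114, with 0 reversed. RPL4 and RPL3L kept their calls in all 17 single changes of setting in the combination against vehicle, RPL10 in 15, RPL12 in 14 and RPL15 in 8. Counts of called members moved by over 1.5 times in some settings, and the cause was not tested beyond the libraries or genes each setting leaves out. Of the combination against vehicle, where 5 were called, the count was 8 with no filter (8.43% of members lower, against 9.4% of all genes tested), 3 with the stricter filter (2.53%, against 19.9%), 11 with length offsets (12.2%, against 19.4%), 32 with the compared groups alone (36.6%, against 21.2%), 55 without the 3 treated libraries numbered 3 (64.6%, against 23.3%), and 2 to 42 with 1 library left out. It was 18 with MLN8237 replicate 3 left out together with combination replicate 1, and 18 with it and vehicle replicate 1 (20.7% lower each, against 19.4%). Of chaetocin against vehicle, where 1 was called, it was 2 with DESeq2 (1.22% lower, against 13.3%), 2 with limma-voom (1.22%, against 12.2%), 3 with the compared groups alone (2.47%, against 18.2%), 5 without the treated libraries numbered 3 (4.88%, against 16.3%), and 1 to 3 with 1 library left out. Of the combination against MLN8237, where 75 were called, it was 42 with the compared groups alone (50% lower, against 15.9%) and 40 to 79 with 1 library left out. The chaetocin difference in share of counts, 0.03 percentage points, was -0.17 with TMM-scaled sizes and -0.10 without the treated library numbered 3, and -0.10 to 0.19 with 1 library left out. The labels do not say whether libraries with the same number shared a batch. Correlations of their deviations from the group means were not over 0.1 in every pair in any comparison (-0.15 to 0.46). In no comparison did every library correlate best with its own number. In the combination against MLN8237 the same-number pairs had 0.318, 0.093 and 0.436, and each combination library correlated best with its own number. There MLN8237 replicate 2 correlated better with combination replicate 1 (0.18). A shared batch was not tested beyond the replicate block. With the replicate block, 13 members were called in the combination against vehicle (14.6% lower, against 21.6% of all genes tested), 2 in chaetocin against vehicle (1.22%, against 14.9%) and 79 in the combination against MLN8237 (95.1%, against 25.3%), and 0 in the other comparisons. Depth was 49439795 counts or more per library. Intervals of single members reflect replicate spread and, for low-count members such as RPS10L and RPL3L, counting noise as well.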
